A study of Mus musculus with 10 samples.

Results

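The 9 genes described here encode surface molecules that decide where a T cell goes and what it holds on to: S1pr1 and Cd69, which control exit from lymphoid tissue, Cd44, a hyaluronan receptor, the integrin alpha chains Itgae, Itga4, Itgal and Itgax, and the integrin beta chains Itgb7 and Itgb1. They were chosen by name, with earlier results of these data known. A gene with several listed transcripts is represented by the one that drew the most reads in all. They are 9 of the 23992 symbols in the deposited tables. All 9 passed the filter on low counts, which left 14357 genes for testing.

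The cells were mouse splenic CD8+ T cells (strain C57BL/6N), enriched with an EasySep kit. In every group they were activated for 48 h with plate-bound anti-CD3 and soluble anti-CD28 (2 µg/ml each), pooled, washed, re-plated and kept for another 48 h. The 5 groups, with 2 poly(A) RNA libraries each, were IL-21 + LDHi, IL-2 + LDHi, IL-21, IL-2 and no cytokine, with mouse IL-21 at 100 ng/ml and human IL-2 at 100 IU/ml. LDHi stands for NCI-737 at 1 µM, an inhibitor of lactate dehydrogenase, the enzyme that makes lactate from pyruvate. It was present from activation and renewed at re-plating, so that its action during activation and its action during the cytokine phase cannot be told apart, and no group here had it without a cytokine. The labels do not say whether the replicates are separate animals or cultures. A p-value here thus rests on the spread between libraries within groups, shared over the 5 groups, and that spread may be technical.

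Recirculating T cells leave a lymph node by following sphingosine 1-phosphate through the receptor S1P1, the product of S1pr1. CD69, which activated T cells put on their surface, binds S1P1 and takes it inside, so the cell stays. An integrin is a pair of 1 alpha and 1 beta chain. Alpha 4 pairs with beta 1 to bind VCAM-1 and fibronectin and with beta 7 to bind MAdCAM-1 of gut vessels, alpha E pairs with beta 7 to bind E-cadherin of epithelia, and alpha L (LFA-1) and alpha X (CD11c) pair with beta 2, the product of Itgb2.

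Library totals ran from 45138204 to 62848913 reads, of which 27137191 to 46656183 fell on the kept transcripts. The smallest of these belonged to IL-21 replicate 2 (59.9% of its total). Replicates lay furthest apart in IL-21, where the SD of the log2 difference between them over the tested genes was 0.760, and closest in IL-2 + LDHi, where it was 0.302. All 10 CD8 T cell markers were at 1 RPKM (the authors' read counts scaled by transcript length and library total) or more in every group. Summed, they reached 1825 and 1817 RPKM in IL-21 + LDHi, 2427 and 2538 in IL-2 + LDHi, 2549 and 1874 in IL-21, 2182 and 2321 in IL-2, and 2544 and 1995 with no cytokine. With the inhibitor in IL-21, 5 of the 10 were lower and 0 higher (edgeR's quasi-likelihood test, adjusted p below 0.05). Over all genes tested, 20.3% were lower and 11.1% higher there. In IL-2, 4 of the 10 were lower and 2 higher, against 21.6% and 17.8% of all genes. As sums, myeloid, basophil and platelet markers were high with no cytokine and, less so, in IL-21. The sums of natural killer and of CD4 T cell markers were highest in IL-2 + LDHi. Cd4 itself was highest in IL-2 (mean 0.810 RPKM, against 0.481 in IL-2 + LDHi). The values of these markers stand beside the genes that were high in the same groups. The 5 B cell markers summed to 4.91 to 19.8 RPKM, with replicate 1 the higher in each group.

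On the mm10 assembly, the build the authors aligned to, the egress genes lie at chr3:115710433-115715055 (S1pr1, minus strand) and chr6:129267324-129275375 (Cd69, minus). Cd44 lies at chr2:102811141-102901669 (minus). The alpha chain genes lie at chr11:73090505-73147449 (Itgae, plus), chr2:79255426-79333114 (Itga4, plus), chr7:127296139-127335137 (Itgal, plus) and chr7:128129526-128150657 (Itgax, plus). The beta chain genes lie at chr15:102215994-102233405 (Itgb7, minus) and chr8:128685654-128733579 (Itgb1, plus). Coordinates are from RefSeq on GRCm38.p6, whose primary assembly is mm10.

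Promoter sequences were at hand for 5 of the 9 genes in RefSeq (GRCm38.p6). The 250 bases before the start are shown for Cd44 and Itgb1, which were both lowest in IL-21 + LDHi, and for Itga4, which was lowest in IL-2. Capitals mark matches to motifs read on both strands, which may overlap: CACCC or GGGTG, bound by KLF factors, ACGTG or CACGT, bound by HIF-1, and TTCNNNGAA, bound by STAT factors.
Cd44 (chr2:102901666-102901915, minus strand): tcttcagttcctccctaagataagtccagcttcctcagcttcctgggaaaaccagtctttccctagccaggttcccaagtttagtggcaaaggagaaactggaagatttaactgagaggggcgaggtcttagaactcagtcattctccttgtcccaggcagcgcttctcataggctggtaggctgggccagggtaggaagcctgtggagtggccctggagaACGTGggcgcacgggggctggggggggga
Itgb1 (chr8:128685404-128685653, plus strand): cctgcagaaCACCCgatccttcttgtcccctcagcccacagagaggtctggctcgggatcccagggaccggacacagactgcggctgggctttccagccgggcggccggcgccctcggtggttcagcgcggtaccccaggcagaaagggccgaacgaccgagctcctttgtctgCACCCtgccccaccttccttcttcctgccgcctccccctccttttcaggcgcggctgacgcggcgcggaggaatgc
Itga4 (chr2:79255176-79255425, plus strand): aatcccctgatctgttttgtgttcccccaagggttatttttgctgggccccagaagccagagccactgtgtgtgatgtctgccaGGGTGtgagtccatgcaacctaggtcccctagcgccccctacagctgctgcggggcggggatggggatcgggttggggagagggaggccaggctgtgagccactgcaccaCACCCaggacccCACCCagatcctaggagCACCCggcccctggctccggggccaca
The Cd44 window held 1 HIF-1 match, at -29 from the start, and no KLF match. The Itgb1 window held 2 KLF matches and the Itga4 window 4. None of the 3 windows held a STAT match. Over all 32851 promoter windows of this length in the table, 52.0% held a KLF match, 16.6% a HIF-1 match and 7.02% a STAT match. A KLF match is thus common, and most windows held no HIF-1 match and no STAT match. The Itgax window, not printed, held none of the motifs, and the Itgb7 window is left out because it lies wholly inside the gene's annotated span. The Cd44 and Itgax windows also reach into their spans at 1 end, Cd44 from 102901666 where the span ends at 102901669. A match describes letters and is not a bound site.

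**Figure D1:**
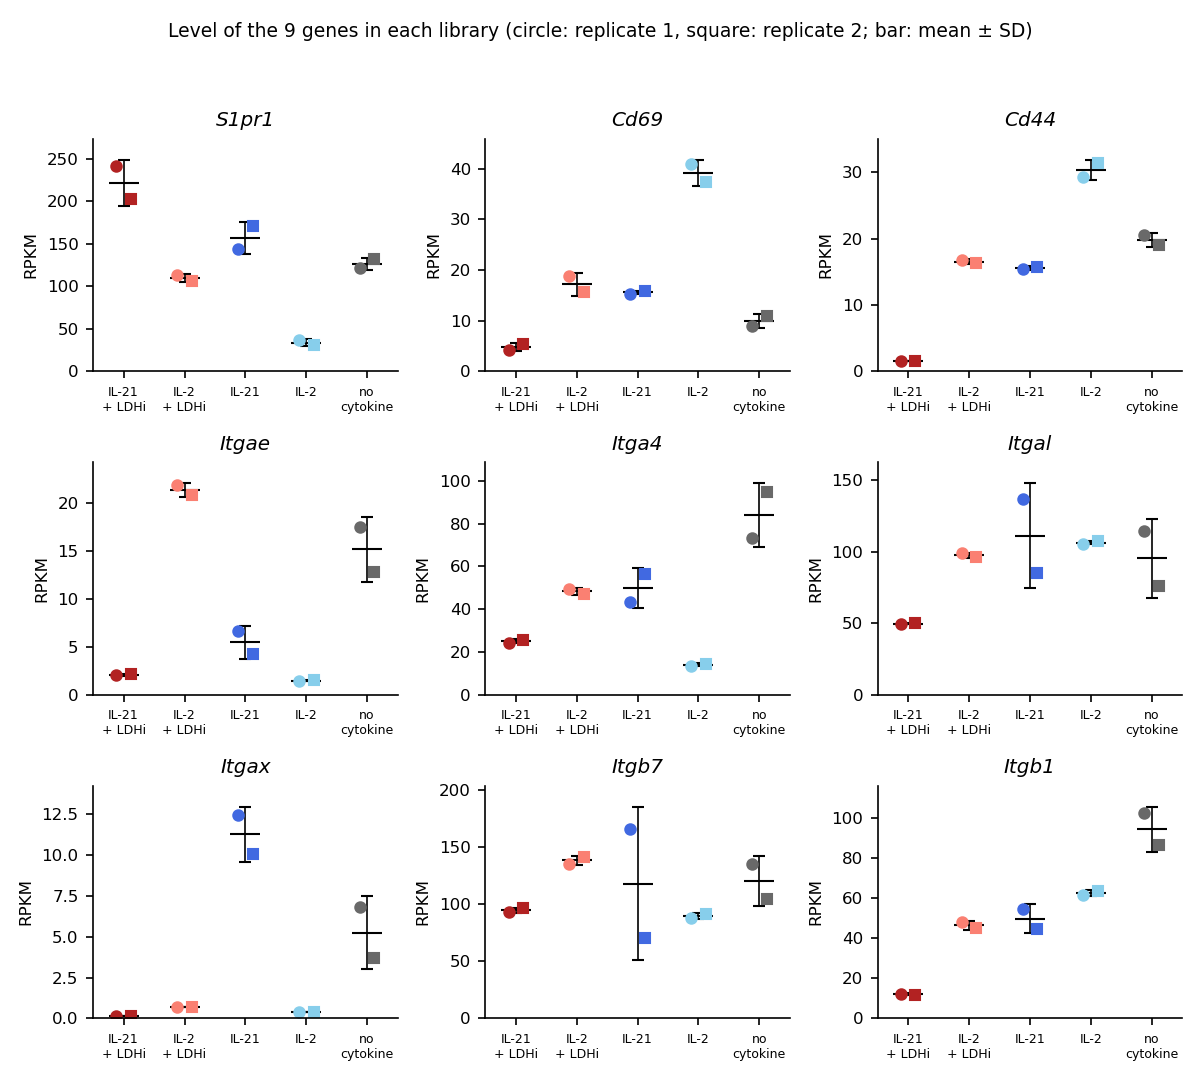
RPKM (vertical axes, each from 0) of the 9 genes in the 10 libraries, by group; circles are replicate 1, squares replicate 2, and bars the mean ± SD of 2 libraries. S1pr1 is highest and Cd69, Cd44, Itgal, Itgax and Itgb1 are lowest in IL-21 + LDHi, while Itgae is highest in IL-2 + LDHi, and the IL-21 libraries stand far apart for Itgal and Itgb7.

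S1pr1 was lowest with IL-2 alone and highest with IL-21 and the inhibitor together. Its level was 241 and 203 RPKM in IL-21 + LDHi, 113 and 107 in IL-2 + LDHi, 144 and 171 in IL-21, 36.5 and 31.1 in IL-2, and 122 and 132 with no cytokine. No library of one group overlapped another group. In order from the top, the group means were 222 ± 27.1 in IL-21 + LDHi, 157 ± 18.9 in IL-21, 127 ± 7.03 with no cytokine, 109.8 ± 4.58 in IL-2 + LDHi and 33.8 ± 3.81 in IL-2 (SD, n = 2 each). Of the 4 steps between neighbours in this order, the lowest passed the test, with IL-2 + LDHi above IL-2 by 1.66 ± 0.19 on the log2 scale (SE, edgeR's quasi-likelihood test, Benjamini-Hochberg adjusted p = 0.000254). In bulk RNA, fewer cells of a type and less RNA per cell cannot be told apart.

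S1pr1 differed between the cytokines with and without the inhibitor. IL-21 cells had 5.34-fold more than IL-2 cells (log2 difference 2.42 ± 0.20, adjusted p = 3.02e-05), and with the inhibitor in both, IL-21 + LDHi still stood above IL-2 + LDHi (1.20 ± 0.19, adjusted p = 0.00155). Against no cytokine it fell by 1.92 ± 0.19 with IL-2 (adjusted p = 6.96e-05), whereas the difference for IL-21, 0.49 ± 0.19, missed the threshold (adjusted p = 0.126; interval 0.07 to 0.92). The inhibitor's difference in IL-21, 0.44 ± 0.19, missed it as well (adjusted p = 0.106). Both passed when 1 IL-21 library was left out: without IL-21 replicate 1 the change against no cytokine was 0.74 (adjusted p = 0.00859), and without IL-21 replicate 2 that with the inhibitor was 0.74 (adjusted p = 0.0068). Klf2, the factor that drives S1pr1 transcription in T cells, had the same lowest and highest groups, with means of 221 ± 20.3 RPKM in IL-21 + LDHi, 142 ± 2.33 in IL-2 + LDHi, 96.8 ± 45.3 in IL-21, 21.8 ± 0.639 in IL-2 and 114 ± 22.6 with no cytokine (SD, n = 2 each). It rose with the inhibitor in IL-21 (1.20 ± 0.21, adjusted p = 0.00292) and in IL-2 (2.66 ± 0.23, adjusted p = 5.32e-05).

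Cd69, whose product holds S1P1 inside the cell, ran nearly the other way. It measured 4.19 and 5.33 RPKM in IL-21 + LDHi, 18.8 and 15.6 in IL-2 + LDHi, 15.3 and 15.8 in IL-21, 41.0 and 37.3 in IL-2, and 8.94 and 10.9 with no cytokine. The IL-2 libraries were the highest and the IL-21 + LDHi libraries the lowest, and IL-2 + LDHi and IL-21 overlapped. With the inhibitor Cd69 fell by 1.76 ± 0.19 in IL-21 (adjusted p = 0.000162) and fell by 1.23 ± 0.18 in IL-2 (adjusted p = 0.000983). These changes were not shown to differ: the difference between them was -0.53 ± 0.26 (adjusted p = 0.186; interval -1.12 to 0.06). Without the inhibitor, IL-21 cells had less than IL-2 cells (-1.14 ± 0.18, adjusted p = 0.00108). Cd69 rose with IL-2 against no cytokine (1.96 ± 0.19, adjusted p = 5.47e-05) and with IL-21 (0.82 ± 0.18, adjusted p = 0.0245). The IL-21 call did not stand without no cytokine replicate 1 (adjusted p = 0.111) or when only those groups were fitted (adjusted p = 0.200). The mirror between the pair of genes was not strict: IL-21 cells had more of both transcripts than cells with no cytokine, although for S1pr1 that difference was not called.

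**Figure D2:**
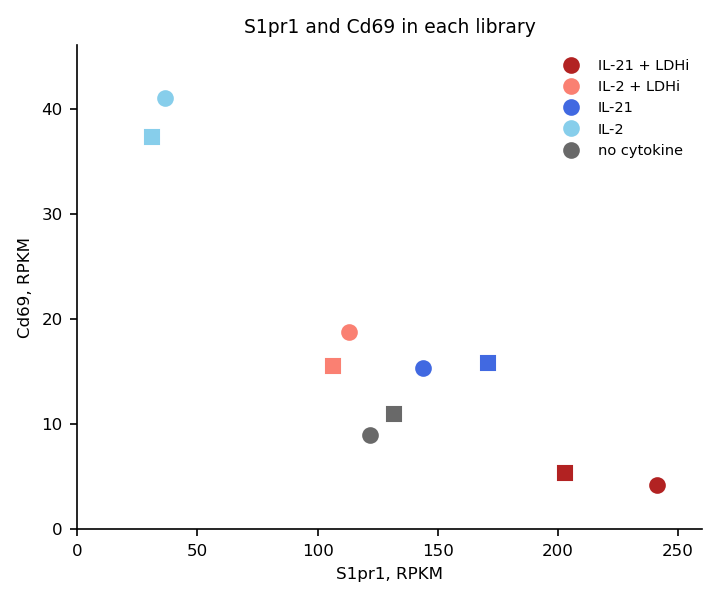
RPKM of Cd69 (vertical axis) against RPKM of S1pr1 (horizontal axis) in the 10 libraries, coloured by group; circles are replicate 1 and squares replicate 2. The IL-2 libraries sit at the upper left (S1pr1 31.1 to 36.5, Cd69 37.3 to 41.0) and the IL-21 + LDHi libraries at the lower right (S1pr1 203 to 241, Cd69 4.19 to 5.33).

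Cd44, which rises on T cells after antigen and binds hyaluronan of the matrix, was almost lost with IL-21 and the inhibitor. It measured 1.59 and 1.499 RPKM in IL-21 + LDHi (441 and 425 reads), 16.8 and 16.3 in IL-2 + LDHi, 15.4 and 15.8 in IL-21, 29.3 and 31.4 in IL-2, and 20.6 and 19.1 with no cytokine. Replicates agreed closely, and no group overlapped another. The inhibitor lowered it 10.4-fold in IL-21 (log2 change -3.38 ± 0.14, adjusted p = 5.9e-07) and 1.89-fold in IL-2 (-0.92 ± 0.12, adjusted p = 0.000565). The change in IL-21 minus that in IL-2 was -2.47 ± 0.18 (adjusted p = 3.49e-05). IL-2 raised Cd44 over no cytokine by 0.60 ± 0.12 (adjusted p = 0.00342), while IL-21 left a difference of -0.18 ± 0.12 that was not called (adjusted p = 0.396). IL-21 + LDHi also differed from no cytokine by -3.56 ± 0.14 (adjusted p = 7.14e-07).

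The files list 6 Cd44 transcripts. The longest (5653 bases) is 1245 bases longer than the shortest (4408 bases), and the reads the longest has beyond the shortest were few in every library. They were 6 of 441 reads (1.36%, Wilson 95% interval 0.625 to 2.94) and 2 of 425 (0.471%, 0.129 to 1.70) in IL-21 + LDHi. In the other groups they were 0.738 and 0.766% in IL-2 + LDHi, 1.28 and 1.98% in IL-21, 1.24 and 1.17% in IL-2, and 1.22 and 1.42% with no cytokine. Nearly all Cd44 reads thus fell on bases that the shortest transcript also holds, and the intervals of the IL-21 + LDHi libraries are too wide to set their share apart from the rest. These intervals cover counting error only.

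Itga4, the alpha chain of VLA-4 and of the gut homing integrin, was highest with no cytokine and lowest in IL-2. It measured 24.3 and 25.7 RPKM in IL-21 + LDHi, 49.5 and 47.3 in IL-2 + LDHi, 43.5 and 56.5 in IL-21, 13.6 and 14.6 in IL-2, and 73.5 and 94.6 with no cytokine. Only IL-2 + LDHi and IL-21 overlapped. The inhibitor moved Itga4 in opposite directions: it fell by 1.06 ± 0.21 in IL-21 (adjusted p = 0.00522) and rose by 1.74 ± 0.22 in IL-2 (adjusted p = 0.000371), a difference of -2.80 ± 0.30 (adjusted p = 0.000328). IL-21 stood 2.03 ± 0.22 above IL-2 (adjusted p = 0.000122), but with the inhibitor in both the order turned, with IL-21 + LDHi lower than IL-2 + LDHi (-0.77 ± 0.21, adjusted p = 0.0257). That last call did not stand without any one of the 4 libraries concerned (adjusted p = 0.0857 to 0.134). Against no cytokine Itga4 fell by 2.60 ± 0.22 with IL-2 (adjusted p = 2.96e-05), and the difference of -0.56 ± 0.21 with IL-21 was not called (adjusted p = 0.121), but was with limma (adjusted p = 0.0256) or without IL-21 replicate 2 (-0.94, adjusted p = 0.00595). Itga4 shares 1124 exon bases with Cerkl on the opposite strand, which had far fewer reads (60 to 162 against 6645 to 41971), and the sources used here do not say whether reads were assigned by strand.

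Itgae, the alpha chain CD103 of T cells that stay in epithelia, had its highest level in IL-2 + LDHi and its lowest in IL-2. It measured 2.02 and 2.13 RPKM in IL-21 + LDHi, 21.8 and 20.8 in IL-2 + LDHi, 6.68 and 4.28 in IL-21, 1.44 and 1.53 in IL-2, and 17.5 and 12.8 with no cytokine. The groups did not overlap. With IL-2 the inhibitor raised Itgae 13.9-fold (log2 change 3.80 ± 0.18, adjusted p = 7.32e-06), and with IL-21 it lowered it 2.66-fold (-1.41 ± 0.17, adjusted p = 0.000305). The opposite changes differed by -5.21 ± 0.25 (adjusted p = 5.99e-06). Against no cytokine Itgae fell by 3.36 ± 0.18 with IL-2 (adjusted p = 4.32e-06) and fell by 1.33 ± 0.17 with IL-21 (adjusted p = 0.00181), and IL-2 + LDHi was not called different from no cytokine (0.44 ± 0.16, adjusted p = 0.0852; interval 0.07 to 0.80). That difference passed without no cytokine replicate 1 (0.68, adjusted p = 0.028) and without either IL-21 library (adjusted p = 0.028 and 0.0277).

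Markers of other lymphocytes rose beside Itgae with the inhibitor in IL-2, all 3 natural killer cell markers (median log2 change 2.48) and 2 of 3 CD4 T cell markers (median 1.05). The marker that did not rise was Cd4 itself, with a mean of 0.481 RPKM in IL-2 + LDHi against 0.810 in IL-2. The 3 natural killer cell markers summed to 10.2 and 9.34 RPKM in IL-2 + LDHi, against 1.11 and 1.31 in IL-2, and the 3 CD4 T cell markers to 8.82 and 8.20 in IL-2 + LDHi, against 3.60 and 3.42 in IL-2. None of these 6 markers was at 0 in both libraries of a group. Their part in the result was not tested.

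Itgal, the alpha chain of LFA-1, was the most abundant of the 4 alpha chains in 9 of 10 libraries and had the narrowest range of group means among them (2.24-fold). It measured 49.5 and 49.95 RPKM in IL-21 + LDHi, 99.0 and 96.6 in IL-2 + LDHi, 137 and 85.2 in IL-21, 106 and 107 in IL-2, and 115 and 76.0 with no cytokine. The IL-21 + LDHi libraries lay below all others, which overlapped except IL-2 + LDHi with IL-2. With IL-21 it fell by 1.17 ± 0.19 under the inhibitor (adjusted p = 0.00179), while with IL-2 the change was -0.16 ± 0.19 (adjusted p = 0.527; interval -0.59 to 0.26). The difference between these changes, -1.01 ± 0.27, was called (adjusted p = 0.0274), but not without any one of the 6 IL-21 + LDHi, IL-2 + LDHi or IL-2 libraries (adjusted p = 0.0788 to 0.0962) and not with limma on log2(RPKM + 1) (adjusted p = 0.099). Itgal was also below IL-2 + LDHi (-0.79 ± 0.19, adjusted p = 0.0143) and below no cytokine (-0.82 ± 0.19, adjusted p = 0.00867) in IL-21 + LDHi. Neither call held throughout: each of the 4 libraries of the IL-2 + LDHi comparison ended it when left out (adjusted p = 0.064 to 0.09), and so did either IL-21 + LDHi library (adjusted p = 0.0598 and 0.0604) or no cytokine replicate 1 (adjusted p = 0.0553) in the other. Itgb2, which encodes the beta chain that the Itgal and Itgax products need, fell by 0.84 ± 0.14 with the inhibitor in IL-21 (adjusted p = 0.00195) and fell by 0.43 ± 0.14 in IL-2 (adjusted p = 0.0345). It measured 66.1 and 69.0 RPKM in IL-21 + LDHi, 96.7 and 97.8 in IL-2 + LDHi, 142 and 97.03 in IL-21, 125 and 130.2 in IL-2, and 112 and 85.8 with no cytokine.

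Itgax, the alpha chain CD11c that dendritic cells carry and some activated CD8+ T cells acquire, was present in IL-21 and no cytokine and near absent elsewhere. It measured 0.122 and 0.154 RPKM in IL-21 + LDHi (24 and 31 reads), 0.680 and 0.681 in IL-2 + LDHi, 12.5 and 10.1 in IL-21, 0.410 and 0.377 in IL-2, and 6.84 and 3.67 with no cytokine. The groups did not overlap, and those in the middle of the order were low in reads (172 and 132 in IL-2 + LDHi, 82 and 84 in IL-2). IL-21 stood 32.2-fold above IL-2 (log2 difference 5.01 ± 0.29, adjusted p = 7.2e-06) and 2.39-fold above no cytokine (1.26 ± 0.24, adjusted p = 0.013). With the inhibitor it fell 83.3-fold in IL-21 (-6.38 ± 0.32, adjusted p = 1.79e-06). In IL-2 the difference of 0.75 ± 0.27 missed the threshold (adjusted p = 0.0573), and it passed without IL-21 replicate 2 (adjusted p = 0.0497), without no cytokine replicate 1 (adjusted p = 0.00525) or without no cytokine replicate 2 (adjusted p = 0.00481). It also passed with DESeq2 (adjusted p = 0.0364), with no filter on low counts (adjusted p = 0.0388), scaled by library size alone (adjusted p = 0.0263) and with only those groups fitted (adjusted p = 0.00342). IL-21 + LDHi lay below IL-2 + LDHi (-2.12 ± 0.31, adjusted p = 0.000989), a call not made by limma on log2(RPKM + 1) (-0.56, adjusted p = 0.117), a scale that shrinks low genes. The changes with the inhibitor differed between the cytokines by -7.13 ± 0.42 (adjusted p = 1.13e-05).

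Markers of other blood cells were high in the same groups as Itgax. The 16 myeloid and dendritic markers summed to 17.2 and 13.4 RPKM in IL-21 + LDHi, 24.4 and 32.9 in IL-2 + LDHi, 70.6 and 70.5 in IL-21, 34.5 and 34.1 in IL-2, and 193 and 252 with no cytokine. The 4 basophil and mast cell markers summed to 0.823 and 1.12 RPKM in IL-21 + LDHi, 1.41 and 1.44 in IL-2 + LDHi, 61.4 and 82.9 in IL-21, 2.42 and 2.64 in IL-2, and 193 and 428 with no cytokine. The 4 platelet markers summed to 18.8 and 21.4, 14.6 and 15.3, 267 and 280.1, 7.74 and 9.66, and 448 and 685 RPKM in the same order of groups. Unlike Itgax, all 3 sums were higher with no cytokine than in IL-21. Of the 16 myeloid and dendritic markers, 11 fell with the inhibitor in IL-21 and 0 rose, and in IL-21 cells 10 stood above and 1 below their IL-2 level. With the inhibitor in IL-2, 8 of the 16 rose and 3 fell (median log2 change 1.56), where 17.8% of all genes were called higher and 21.6% lower. Mean Lyz2 was 8.67 RPKM in IL-2 + LDHi against 1.38 in IL-2, while Cd68 was 3.87 against 10.7 and H2-Ab1 5.11 against 19.1. Lyz2 was the largest with no cytokine (mean 131 RPKM) and in IL-21 (34.6). The dendritic markers Flt3, Zbtb46, Xcr1, Clec9a and Siglech had group means of at most 0.482 RPKM (Clec9a, no cytokine). Unlike Itgax, Cd68, H2-Ab1 and Zbtb46 had higher means in IL-2 (10.7, 19.1 and 0.327 RPKM) than in IL-21 (7.30, 9.14 and 0.103). The 3 sums were highest where Itga4, Itgb1 and, apart from IL-2 + LDHi, Itgae were highest, with no cytokine. The part of these cells in the levels of the 4 genes was not tested.

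**Figure D3:**
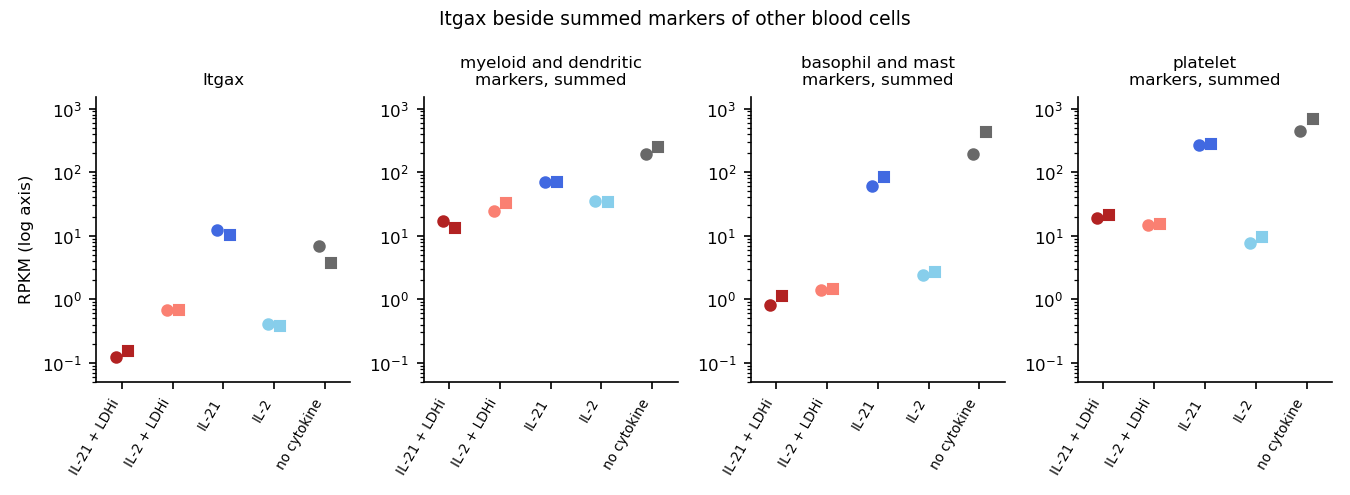
RPKM (logarithmic vertical axis, the same in each panel) of Itgax and of the summed myeloid and dendritic (16), basophil and mast cell (4) and platelet (4) markers in the 10 libraries; circles are replicate 1 and squares replicate 2. Itgax is highest in IL-21 (10.1 to 12.5), while each marker sum is highest with no cytokine.

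Itgb1, the beta chain of VLA-4 and of the receptors for collagen and laminin, was highest with no cytokine and lowest in IL-21 + LDHi. It measured 12.3 and 11.8 RPKM in IL-21 + LDHi, 47.9 and 44.9 in IL-2 + LDHi, 54.8 and 44.6 in IL-21, 61.4 and 63.5 in IL-2, and 102 and 86.5 with no cytokine. The IL-21 libraries overlapped those of IL-2 + LDHi, and the other groups stood apart. It fell by 2.07 ± 0.11 with the inhibitor in IL-21 (adjusted p = 2.53e-06) and fell by 0.47 ± 0.11 in IL-2 (adjusted p = 0.00874), a difference of -1.60 ± 0.16 (adjusted p = 0.000181). The call in IL-2 was lost without IL-2 replicate 2 (adjusted p = 0.0703) and without IL-2 + LDHi replicate 2 (adjusted p = 0.0978). Without the inhibitor the cytokines were not called different (-0.16 ± 0.11 for IL-21 over IL-2, adjusted p = 0.251; interval -0.41 to 0.09), and both lay below no cytokine (-0.77 ± 0.11 with IL-21, adjusted p = 0.00332, and -0.61 ± 0.11 with IL-2, adjusted p = 0.00157).

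Itgb7, the beta chain shared by the gut homing integrin and CD103, was not called in any comparison of the fit of all libraries. It measured 93.1 and 96.3 RPKM in IL-21 + LDHi, 135 and 141 in IL-2 + LDHi, 166 and 70.4 in IL-21, 87.6 and 91.3 in IL-2, and 135 and 104 with no cytokine. The IL-21 libraries were the highest and the lowest of all 10, so the other groups lay between them. Its adjusted p ran from 0.0959 to 0.868 over the comparisons. Its change with the inhibitor was -0.30 ± 0.25 in IL-21 (interval -0.87 to 0.27) and 0.59 ± 0.25 in IL-2 (interval 0.02 to 1.16). Both IL-21 libraries weigh on these values: the first was 0.24 without IL-21 replicate 1 (adjusted p = 0.202) and -0.69 without IL-21 replicate 2 (adjusted p = 0.00504). The rise in IL-2 was called once either IL-21 library was out of the shared spread (0.59, adjusted p = 0.00265 and 0.00262) or with library size alone as the scale (0.71, adjusted p = 0.0462), and likewise IL-2 against no cytokine (-0.44, adjusted p = 0.0101 and 0.00992). So were IL-21 + LDHi against IL-2 + LDHi (-0.37, adjusted p = 0.0358 and 0.036) and, in opposite directions, IL-21 against no cytokine (-0.46, adjusted p = 0.0461, without replicate 1, and 0.48, adjusted p = 0.0495, without replicate 2). With only the compared groups fitted, the rise in IL-2 (adjusted p = 1.7e-05), IL-2 against no cytokine (adjusted p = 0.0445) and IL-21 + LDHi against IL-2 + LDHi (adjusted p = 0.00134) were called too. IL-21 against IL-2 (0.92, adjusted p = 0.00064) and the difference between the inhibitor's changes (-1.28, adjusted p = 0.000954) were called without IL-21 replicate 2.

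Itgb7 was above Itgb1, the other beta chain that alpha 4 pairs with, in every library, by a margin that differed between groups. Itgb7 made up 88.3 and 89.1% of the summed RPKM of Itgb7 and Itgb1 in IL-21 + LDHi, 73.9 and 75.9% in IL-2 + LDHi, 75.1 and 61.2% in IL-21, 58.8 and 59.0% in IL-2, and 56.9 and 54.7% with no cytokine. The IL-21 + LDHi libraries had the largest shares of all 10, and IL-2 + LDHi lay above IL-2, while IL-21 overlapped IL-2 + LDHi. Of the alpha chains that pair with beta 7, Itgae made up 7.67 and 7.65% of the summed RPKM of Itgae and Itga4 in IL-21 + LDHi, 30.6 and 30.5% in IL-2 + LDHi, 13.3 and 7.03% in IL-21, 9.59 and 9.49% in IL-2, and 19.3 and 11.9% with no cytokine. The share was highest in IL-2 + LDHi, where Itga4 was above its IL-2 level as well. These are shares of transcript levels per length and say nothing of protein pairs on the cell surface.

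**Figure D4:**
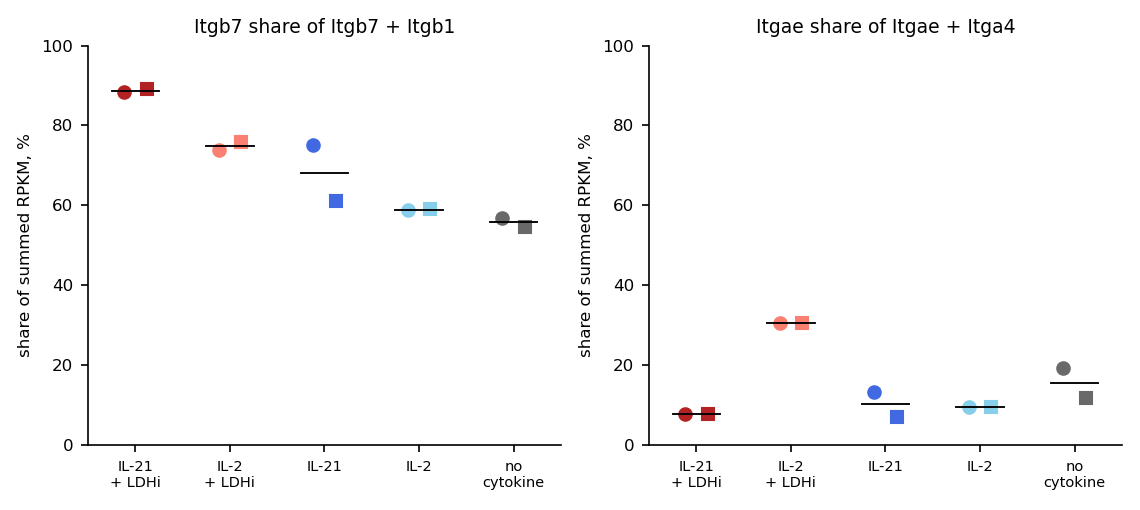
Share of Itgb7 in the summed RPKM of Itgb7 and Itgb1 (left) and of Itgae in the summed RPKM of Itgae and Itga4 (right), in percent, for the 10 libraries; circles are replicate 1, squares replicate 2, and lines group means. Itgb7 reaches 88.3 and 89.1% in IL-21 + LDHi, and Itgae 30.6 and 30.5% in IL-2 + LDHi.

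Counted over the 9 genes, the inhibitor in IL-21 lowered 7 (Cd69, Cd44, Itgae, Itga4, Itgal, Itgax and Itgb1) and raised 0, at a median change of -1.41 against -0.03 over all genes tested, of which 20.3% were called lower and 11.1% higher. In IL-2 it raised 3 (S1pr1, Itgae and Itga4) and lowered 3 (Cd69, Cd44 and Itgb1), where 17.8% of all genes were called higher and 21.6% lower, with medians of 0.59 over the 9 genes and 0.01 over all. Between the inhibited cultures, IL-21 + LDHi against IL-2 + LDHi, 1 gene (S1pr1) was higher and 7 were lower, where 9.39% of all genes were called higher and 16.7% lower, with medians of -1.67 and 0.01. Without the inhibitor, IL-21 against IL-2 had 4 higher (S1pr1, Itgae, Itga4 and Itgax) and 2 lower (Cd69 and Cd44), where 24.9% of all genes were called higher and 24.7% lower, with medians of 0.52 and 0.02. Against no cytokine, IL-21 had 2 higher (Cd69 and Itgax) and 2 lower (Itgae and Itgb1), where 5.65% of all genes were called higher and 5.9% lower, with medians of 0.08 and -0.01. IL-2 had 2 higher (Cd69 and Cd44) and 5 lower (S1pr1, Itgae, Itga4, Itgax and Itgb1), where 25.6% of all genes were called higher and 24.8% lower, with medians of -0.61 and -0.03. All 4 calls of IL-21 against no cytokine were lost when only those groups were fitted (adjusted p = 0.103 to 0.200), a fit that called 91 genes in place of 1658. These comparisons share libraries with each other and are not independent, and the 9 genes were chosen with earlier results of these data known. Scaling by library size alone moved the median over all genes by up to -0.14, and higher genes then made up 37.2% in place of 48.9% of calls in IL-21 against no cytokine and 56.3% in place of 45.2% in IL-2 + LDHi against IL-2.

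Against no cytokine, the inhibited groups stood apart to different degrees. IL-21 + LDHi had 1 of the 9 genes higher (S1pr1, 0.93 ± 0.19, adjusted p = 0.00412) and 7 lower, where 13.5% of all genes were called higher and 23.6% lower. The 7 were all but Itgb7, with changes from -0.82 for Itgal to -5.13 ± 0.31 for Itgax. IL-2 + LDHi had 1 higher (Cd69, 0.73 ± 0.18, adjusted p = 0.0193) and 3 lower (Itga4, Itgax and Itgb1), where 10.9% of all genes were called higher and 13.3% lower. Of these, Cd69 lost its call without IL-2 + LDHi replicate 1 (adjusted p = 0.148) or no cytokine replicate 1 (adjusted p = 0.114). Itga4 (-0.86 ± 0.21, adjusted p = 0.0178) lost it without either IL-2 + LDHi library (adjusted p = 0.0874 and 0.122) or no cytokine replicate 2 (adjusted p = 0.1). Cd44, not called there (-0.32 ± 0.12, adjusted p = 0.0958), was called without either IL-21 library (adjusted p = 0.0195 and 0.0189).

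**Figure D5:**
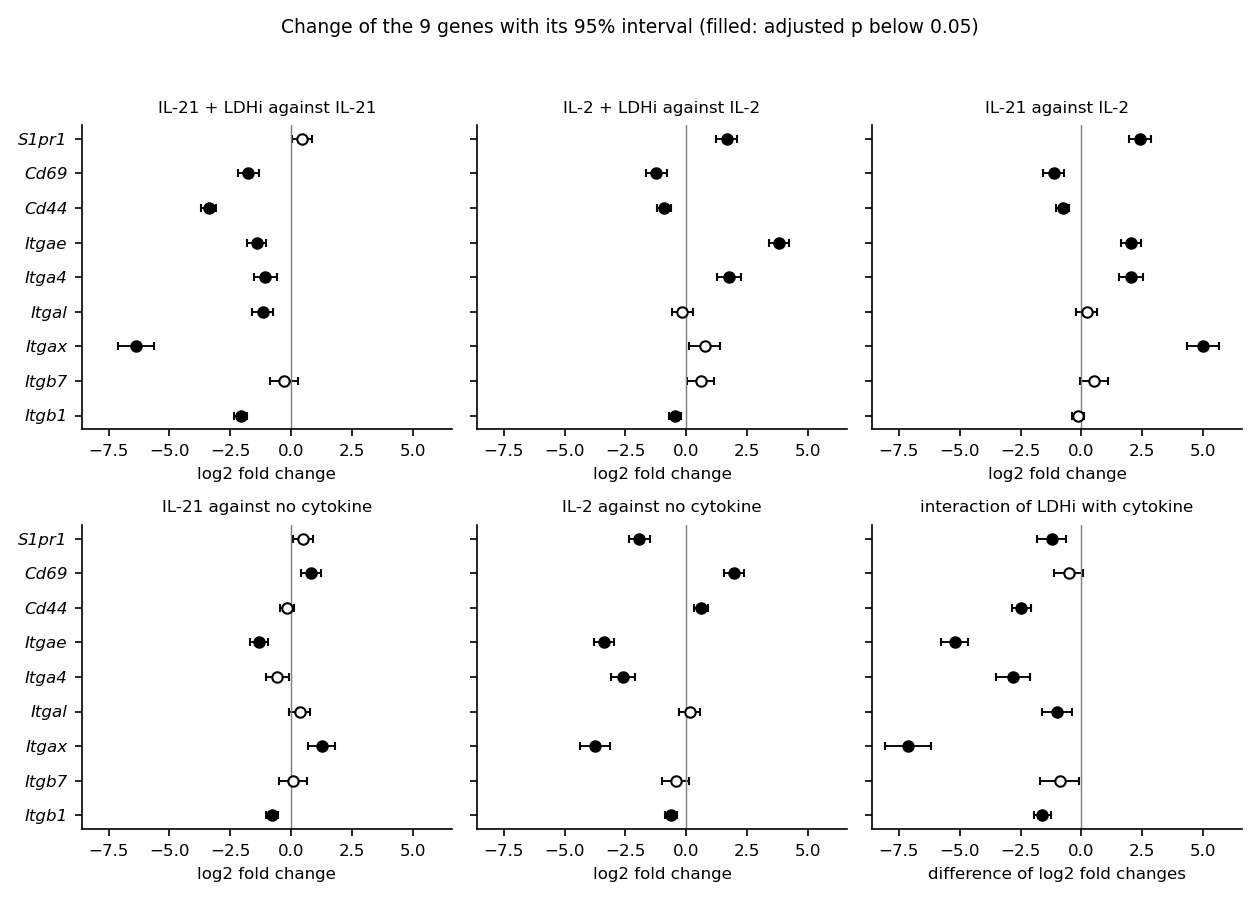
Log2 fold changes (points) with 95% intervals (bars) of the 9 genes in 5 comparisons, and the difference between the inhibitor's log2 fold changes in IL-21 and in IL-2 (lower right); filled points have an adjusted p below 0.05. With the inhibitor 7 of 9 genes have filled points below 0 in IL-21, whereas in IL-2 those of S1pr1, Itgae and Itga4 lie above 0 and those of Cd69, Cd44 and Itgb1 below.

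The effect of the inhibitor depended on the cytokine for 7 of the 9 genes. The difference, its log2 change in IL-21 minus that in IL-2, was called below 0 for S1pr1 (-1.22 ± 0.27, adjusted p = 0.0113), Cd44, Itgae, Itga4, Itgal, Itgax and Itgb1, where 13.8% of all genes were called below 0 and 7.98% above, with medians of -1.60 over the 9 genes and -0.08 over all. With library size alone as the scale, those above 0 made up 25.3% in place of 36.7% of all genes called. For Itgae and Itga4 the changes had opposite signs and both were called. S1pr1 rose in IL-2 and was not called in IL-21, and its difference missed the threshold without IL-2 replicate 2 (adjusted p = 0.0507) or without IL-21 + LDHi replicate 2 (adjusted p = 0.0546). The Itgal call was not made by limma on log2(RPKM + 1) (adjusted p = 0.099) and, as given above, was lost when some single libraries were left out. Cd69 and Itgb7 were not called for a difference (-0.53 ± 0.26 and -0.89 ± 0.36).

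Each gene whose group means spanned at least 2 on the log2 scale was compared with 8380 other genes for the likeness of its pattern, taken as the root mean square difference of centred log2 CPM (library-scaled counts) over the 10 libraries. The nearest to S1pr1 were Art2b, an ADP-ribosyltransferase of the T cell surface (0.22), the antisense gene Arhgap27os3 (0.25) and Slc25a27, a mitochondrial carrier (0.26). Nearest to Cd69 were Tmem97, a sterol-regulated membrane protein (0.24), Evi2a (0.28) and Zbed3 (0.29). Cd44 was nearest to Lxn, a carboxypeptidase inhibitor (0.22), Lgals3, the lectin galectin-3 (0.28), and S100a1, a calcium-binding protein (0.29). Itga4 was nearest to Tbx6, a T-box factor (0.33), Rab32, a small GTPase (0.35), and Syne1, a nuclear envelope protein (0.35).

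Itgb1 lay nearest to Endod1 (0.21), and Ubash3b, a phosphatase of T cell receptor signalling (0.26), was also among its nearest. Itgae and Itgax had no close match. The nearest to Itgae were Slc16a5, of the monocarboxylate transporter family (0.67), Kcna2, a potassium channel (0.70), and Gzmm, granzyme M (0.71), and the nearest to Itgax were Itgam, the alpha chain of Mac-1 (0.83), Clu, clusterin (1.04), and Ccl3, a chemokine (1.04). Itgal and Itgb7 spanned too little to be compared with other genes. Among the 36 pairs of the 9 genes themselves, Itgal and Itgb7 were the closest (0.43), followed by Cd44 and Itgb1 (0.67) and by Itgal and Itgb1 (0.67). Genes measured on the same libraries share their depth and scaling, so these values describe likeness only.

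The wider lists give the genes near these 9 in function. Their counts stand against shares over all genes of 11.1% higher and 20.3% lower with the inhibitor in IL-21, 17.8% and 21.6% in IL-2, 24.9% and 24.7% for IL-21 against IL-2, 25.6% and 24.8% for IL-2 against no cytokine, and 5.65% and 5.9% for IL-21 against no cytokine. Of 18 further integrin subunits tested, 10 fell and 1 rose with the inhibitor in IL-21 (median -0.98), and 7 fell and 4 rose in IL-2 (median -0.45). In IL-21, Itgam fell by 5.48 ± 0.49 (0.116 against 5.02 RPKM), Itga2b, the platelet alpha IIb chain, fell by 2.85 ± 0.17 (2.72 against 19.4), and Itgb3, its partner, fell by 1.04 ± 0.14 (15.2 against 30.7). In IL-2, Itga7, a laminin receptor chain, fell by 4.76 ± 0.50 (0.23 RPKM in IL-2 + LDHi against 6.02 in IL-2), and Itga6, another, rose by 0.90 ± 0.13 (23.8 against 12.4). Itgam and Itga2b are themselves among the myeloid and platelet markers given above. Against no cytokine, 7 subunits were lower and 4 higher with IL-2, and 6 lower and 0 higher with IL-21. IL-21 against IL-2 had 8 higher and 6 lower.

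Of 24 genes that activate integrins or tie them to the cytoskeleton, 7 fell and 1 rose with the inhibitor in IL-21, and 4 fell and 5 rose in IL-2, where both counts lie near the shares over all genes. In IL-21, Zyx, the adhesion protein zyxin, fell by 1.43 ± 0.15 (38.0 against 101 RPKM), and Vcl, vinculin, fell by 3.15 ± 0.30 (0.927 against 7.90). Vcl was highest with no cytokine (14.01 RPKM) and next in IL-21, as were the platelet and basophil marker sums, and their part in its fall was not tested. Tln1, talin, which links beta chains to actin, rose by 0.57 ± 0.16 in IL-2 (77.1 RPKM in IL-2 + LDHi against 50.7 in IL-2). Rasgrp2, the exchange factor that turns on Rap1, was 10.1 RPKM in IL-21 + LDHi against 53.5 in IL-2 + LDHi (-2.22 ± 0.21, adjusted p = 7.35e-05). IL-2 against no cytokine had 1 higher and 10 lower, IL-21 against no cytokine 1 higher and 2 lower, and IL-21 against IL-2 10 higher and 2 lower.

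Of 25 other adhesion receptors and ligands, 13 fell and 0 rose with the inhibitor in IL-21, and 5 fell and 7 rose in IL-2. Cd6, a receptor for the adhesion molecule Alcam, fell by 1.31 ± 0.19 in IL-21 (29.8 against 73.2 RPKM), and Alcam itself fell by 2.41 ± 0.18 in IL-2 (2.02 against 10.4). Icam2, a ligand of LFA-1, rose by 1.63 ± 0.25 in IL-2 (22.1 against 6.94). IL-2 against no cytokine had 5 higher and 15 lower, and IL-21 against IL-2 15 higher and 6 lower. Among 9 genes that build selectin ligands, 1 rose and 3 fell with the inhibitor in either cytokine. Fut4 and Fut7, the fucosyltransferases of the last step, fell by 5.30 ± 0.37 (0.162 against 6.26 RPKM) and fell by 2.04 ± 0.28 (1.40 against 5.56) with the inhibitor in IL-2. With IL-2 over no cytokine they had risen by 4.33 ± 0.34 and 1.38 ± 0.28.

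Of 17 other genes of the sphingosine 1-phosphate pathway and egress, 2 rose and 5 fell with the inhibitor in IL-21, and 5 rose and 2 fell in IL-2. Beside Klf2, Foxo1, a factor upstream of it, rose by 0.86 ± 0.11 in IL-2 (40.6 against 21.7 RPKM), and S1pr4, a further receptor for the lipid, by 0.81 ± 0.28 (49.7 against 27.5, adjusted p = 0.0448). Sgpl1, the lyase that breaks down sphingosine 1-phosphate, rose by 0.63 ± 0.12 in IL-21 (13.2 against 8.44). IL-2 against no cytokine had 2 higher and 10 lower. Of 13 CD44 partners tested, 1 rose and 5 fell with the inhibitor in IL-21, and 2 rose and 2 fell in IL-2. Hmmr, a further hyaluronan receptor and a mitotic gene, fell by 3.21 ± 0.19 in IL-21 (1.16 against 10.3 RPKM), and Srgn, the granule proteoglycan that CD44 binds, fell by 1.77 ± 0.36 (102 against 324).

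TGF-beta induces Itgae in T cells, and of 15 genes of its pathway 6 rose and 3 fell with the inhibitor in IL-21, and 7 rose and 4 fell in IL-2. Smad3, which carries the signal, fell by 1.70 ± 0.20 in IL-21 (3.12 against 10.1 RPKM), and Tgfb1, the ligand, fell by 1.44 ± 0.13 (17.5 against 46.1). In IL-2, where Itgae rose, Smad7 and Ski, which are inhibitors of the pathway, rose by 1.65 ± 0.14 (15.8 against 4.90) and 1.77 ± 0.12 (19.7 against 5.64). Of 12 other genes tied to tissue residency, 2 rose and 8 fell with the inhibitor in IL-21 (median -1.81), and 3 rose and 6 fell in IL-2, against 11.1% and 20.3% of all genes in IL-21 and 17.8% and 21.6% in IL-2. In IL-21, Xcl1, a chemokine, fell by 4.38 ± 0.49 (0.699 against 14.3 RPKM), while Cxcr6, a homing receptor of resident cells, rose by 1.38 ± 0.15 (163 against 61.8). Rgs1, which dampens chemokine receptors, fell by 2.21 ± 0.23 in IL-2 (9.11 against 41.0).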

How the data were processed

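The 10 libraries, 2 in each of 5 groups, were made with the Kapa mRNA HyperPrep kit and read on a HiSeq3000. For each of 31682 RefSeq transcripts the deposited tables hold the read count, the length and the RPKM that the authors derived from them. Per the submitters' processing notes mm10, TopHat2 2.2.1, Bowtie2 2.2.6, SAMtools 0.1.8, bedtools 2.25.0 and edgeR took part; the sources used here do not say whether reads were assigned by strand. Reads that fit several transcripts of a gene enter the count of each, and 4343 of 23992 symbols have several. Depth bounds the precision of low genes, and intervals of shares cover counting error only.

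In R 4.3.3, the deposited counts went through edgeR 4.0.16: low genes left by filterByExpr (minimum count 10, minimum total 15), libraries scaled by TMM, then the quasi-likelihood model in its robust form over all 10 libraries with 1 mean per group (5 residual degrees of freedom, common biological coefficient of variation 0.171). The 9 comparisons, the last an interaction, were two-sided, with Benjamini-Hochberg adjustment over 14357 genes and calls at an adjusted p below 0.05. The SE is the log2 fold change over the square root of F. Levels are the authors' RPKM (mean ± SD, n = 2). The script was tested on simulated data. Promoter motifs were read from a RefSeq table.

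The members and lists were chosen with earlier results of these data known. Named are all 9 genes, Itgb2, Klf2, Ldha, the markers, and per list and comparison at most 3 genes with the largest change (called, with separate group ranges and a higher mean of 5 RPKM or more). A further gene of the rule is not reported here. Likeness was measured over genes at 5 RPKM or more in some group. The lists' Zfp683 matched no symbol in the files, and 3 symbols matched by an older name. Alternatives were scaling by RLE or by library size only, DESeq2 1.42.0, limma 3.58.1 on log2(RPKM + 1), no filter, RPKM of at least 5 in 2 libraries, the longest transcript, a fit of the compared groups alone, replicate blocks, and each library left out. Python 3.11.15 with pandas 2.3.3, numpy 2.4.6, scipy 1.17.1 and matplotlib 3.10.9 made tables and figures.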

Additional observations from a re-analysis of the deposited data

Results flagged for a closer look

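For 7 of the 9 genes the inhibitor's change differed between the cytokines, as tested by the interaction of inhibitor and cytokine over the 8 libraries with a cytokine within the fit of all 10. The values, each the log2 change in IL-21 minus that in IL-2, were -7.13 for Itgax, -5.21 for Itgae, -2.80 for Itga4, -2.47 for Cd44, -1.60 for Itgb1, -1.22 for S1pr1 and -1.01 for Itgal. Only for Itgae and Itga4 were both single changes called with opposite signs. The Itgal call was not made by limma on log2(RPKM + 1) (adjusted p = 0.099). As given above, the Itgal and S1pr1 calls were also lost when some single libraries were left out. Itgax was high in the groups where the myeloid, basophil and platelet marker sums were high, IL-21 and no cytokine. Unlike these sums, it was higher in IL-21 (mean 11.3 RPKM) than with no cytokine (5.25). The part of the marked cells was not tested.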

How the results depend on the processing

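Of 729 member values under the 9 alternatives that keep all libraries, 712 kept direction and side of the threshold, and of 810 with 1 library left out, 752 did. Depth limits Itgax, with 24 and 31 reads in IL-21 + LDHi, and 2 libraries per group limit every test. The replicate number as a block changed no call of a member and no count by over 1.5 times. The replicate numbers do not pair the samples: deviations of same-numbered libraries correlated from -0.147 to 0.483 over 10 pairs of groups.

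Testing only the 8673 genes at RPKM 5 or more in 2 libraries, so fewer genes, gave 4484 called in IL-2 against no cytokine, 1083 in IL-21 against no cytokine, 4349 in IL-21 against IL-2, 3651 in IL-2 + LDHi against IL-2, 2563 in IL-21 + LDHi against IL-21, 2084 in IL-2 + LDHi against no cytokine, 2985 in IL-21 + LDHi against no cytokine and 1984 in the interaction. Fitting only the groups compared, so fewer samples, gave 91 genes (and 0 members in place of 4) in IL-21 against no cytokine, 4522 in IL-21 against IL-2, 9069 in IL-2 + LDHi against IL-2, 2259 in IL-21 + LDHi against IL-21 and 7352 in IL-21 + LDHi against IL-2 + LDHi. With limma the uncalled Itgb7 in IL-21 against no cytokine turned to -0.14 and Itgal in IL-2 + LDHi against no cytokine to 0.0645; the cause was not tested.

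Leaving out 1 library gave, in genes and members called, 4956 to 8911 and 7 to 8 in IL-2 against no cytokine, 749 to 3967 and 3 to 6 in IL-21 against no cytokine, 4509 to 8370 and 6 to 7 in IL-21 against IL-2, 3109 to 7326 and 5 to 8 in IL-2 + LDHi against IL-2, 2453 to 6660 and 7 to 9 in IL-21 + LDHi against IL-21, 2055 to 5493 and 6 to 9 in IL-21 + LDHi against IL-2 + LDHi, 1558 to 5192 and 2 to 6 in IL-2 + LDHi against no cytokine, 3538 to 6858 and 7 to 8 in IL-21 + LDHi against no cytokine, and 1750 to 5203 and 5 to 8 in the interaction. Where a group was left with 1 library, it was assumed to vary like the others. The range of log2 changes passed 0 for Itgal in IL-2 against no cytokine (-0.11 to 0.46), IL-21 against IL-2 (-0.000302 to 0.39) and IL-2 + LDHi against no cytokine (-0.28 to 0.30). It did so for Itgb7 in IL-21 against no cytokine (-0.46 to 0.48), IL-21 against IL-2 (-0.0238 to 0.92), IL-21 + LDHi against IL-21 (-0.69 to 0.24) and IL-2 + LDHi against no cytokine (-0.0144 to 0.34).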
